A study of Homo sapiens with 6 samples.

Results

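The heat shock proteins and chaperones examined here are 42 genes of the HSP70, HSP110, HSP90, small heat shock protein, chaperonin, DNAJ and BAG families, with their co-chaperones and the regulator HSF1. They were chosen by name from the 27394 genes of the deposited table, and a mean normalized count of at least 1 over the libraries was required. All 42 passed, the lowest with a mean of 179 in the shControl group. The list is wider than the cytosol, since 3 members work in mitochondria (HSPA9, HSPD1 and HSPE1) and 4 in the endoplasmic reticulum (HSP90B1, HSPA13, DNAJB11 and DNAJC3). PANC-1, an established line of pancreatic ductal carcinoma cells, was given a control shRNA (shControl, 3 libraries) or an shRNA that silences ZDHHC20, an enzyme that attaches palmitate to proteins (shZDHHC20, 3 libraries). All 6 libraries share the line and the culture medium. The study describes cells infected with ZDHHC20 shRNAs, and its methods also describe transfection of silencing plasmids. The sample titles name shRNA, while the columns of the deposited table are named siZDHHC20 and NC. The sources do not say which of the listed shRNAs was used, or whether the replicates were separate cultures, so p-values measure the spread between these libraries. In such bulk RNA, a change in the share of cells that express a gene and a change in RNA per cell cannot be told apart.

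Chaperones bind unfolded stretches of other proteins and help them fold, assemble, move or be degraded. HSP70 proteins do this in cycles of ATP hydrolysis that DNAJ proteins (the HSP40 family) start and that nucleotide exchange factors, such as the HSP110 and BAG proteins, end. HSP90 proteins take over kinases and receptors at a later stage, and TRiC, a ring of CCT subunits, folds actin and tubulin. HSF1 is the transcription factor that raises many of these genes when proteins misfold, by binding repeats of nGAAn in their promoters. HSPA8, also called HSC70, carries proteins to the lysosome in chaperone-mediated autophagy, a route the study examined for the RNA-binding protein YTHDF3. The comparison here asks whether chaperone transcripts differ when ZDHHC20 is silenced.

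The values are gene counts scaled by 1 factor per library and are called normalized counts. The factors that divided the counts, which stand in for depth here, were between 93.9% and 105.9% of their mean. Total counts were not compared. ZDHHC20 itself was at 42.6% of its control mean (1991 ± 46.9 in shControl, 848 ± 61.02 in shZDHHC20, SD, n = 3 each), and its groups did not overlap. The 5 markers set for the line had control means of 56187 (KRT8), 19660 (KRT18), 5917 (KRT19), 21163 (VIM) and 86.5 (KRT7), and 0 of them was called by limma, with KRT8 and KRT18 (2 of the 5) at an unadjusted p under 0.05. Of markers of other cells, PRSS1 and CTRB1 (acinar), SST (endocrine), PTPRC and CD68 (leukocyte) and CDH5 and VWF (endothelial) were at most 8.66 in any library. The collagen gene COL1A1, used as a fibroblast marker, was at 3931 ± 42.7 and 3260 ± 134 (SD, n = 3, adjusted p = 0.00288), while LUM was at 0 in all shControl libraries and at most 3.18 in shZDHHC20, and their part in the results was not tested. The remaining 9 markers, all of other cells, were not found among the genes of the deposited table. The library shZDHHC20 replicate 2 stood apart from the other 2 of its group. Over the 42 chaperone genes the SD of log2 differences was 0.0675 between shZDHHC20 replicates 1 and 3 and from 0.168 to 0.183 between either of them and replicate 2. Over the 4136 genes with means of 1000 or more, it was 0.0722 between replicates 1 and 3. Against replicate 2 it was from 0.178 to 0.198 there, so the deviation was not particular to the chaperone genes. Replicate 2 was below both of its partners in 28 of the 42 genes and above both in 10. The same count over all genes was not made. The log2 fold changes and ratios without it are therefore given for the chaperone genes that depended on it and for all that were called.

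The promoters of several members hold the heat shock element, the sequence that HSF1 binds. These are shown because the log2 fold changes of genes that carry it differed in sign, though most of those genes were not called. RefSeq promoter windows (GRCh38.p14, from 250 bases before to 50 after a start) were found for 37 of the 42 members, in 52 windows. The letters GAANNTTCNNGAA, 3 alternating units searched on both strands, were in 6 of those 37 members, of which HSP90AA1 alone was called. Among all 27305 genes with a window, 0.608% held them. In the sequences below, written 5′ to 3′ on the strand of the gene, capitals mark the units of the element and positions count from the start of the gene.
HSPA8, chr11:123062346-123062374, minus strand, element from position -230: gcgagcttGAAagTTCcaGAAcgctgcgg
HSPA8, chr11:123062171-123062199, minus strand, element from position -55: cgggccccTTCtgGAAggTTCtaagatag
HSP90AA1, chr14:102087112-102087140, minus strand, element from position -88: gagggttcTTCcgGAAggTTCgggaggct
HSP90AB1, chr6:44247770-44247798, plus strand, element from position -165: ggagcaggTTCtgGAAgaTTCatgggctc
HSP90AB1, chr6:44247823-44247851, plus strand, element from position -112: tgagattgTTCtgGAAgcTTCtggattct
HSPD1, chr2:197500061-197500090, minus strand, element from position -245: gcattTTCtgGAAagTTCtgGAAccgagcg
HSPA8 and HSP90AB1 had 2 elements each in these windows, and HSPD1 had a run of 4 units. DNAJB6 had an element from position -131, and DNAJA1 had one from position 4, after its start. Some of these genes have several listed starts, and each printed element lies in the window of 1 of them. A shorter form of 2 units, GAANNTTC, which every longer match also contains, was in 14 of the 37 members, HSPA1A, HSPA1B, HSPB1 and DNAJB1 among them, and in 8.21% of all genes with a window. A match describes letters and does not show binding.

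Most chaperone genes differed little between the groups. At an adjusted p under 0.05 in limma's two-sided test over all 22189 genes tested, 6 of 42 members (14.3%) were called, against 11.5% of all genes tested, 21.7% of the 10908 genes whose mean was 100 or more and 27.8% of the 4136 genes whose mean was 1000 or more, a level that 32 of the 42 members reached. HSPA13 and HSP90AA1 were higher in shZDHHC20, and HSPA4L, HSPE1, BAG3 and CCT4 were lower. The share called higher was 4.76% (4.61% of all genes tested) and the share called lower 9.52% (6.84%). No member reached a fold of 1.5 either way, while 26.0% of all genes tested and 2.78% of those with means of 100 or more did. The log2 fold changes ran from -0.41 to 0.23 with a median of -1.4e-05, and the median over all genes tested was 0.01. The groups did not overlap in 18 members (42.9%), 8 of them higher and 10 lower, against 28.6% of all genes tested and 42.6% of those with means of 100 or more. By direction, 13.8% of all genes tested lay higher and 14.8% lower without overlap. At an unadjusted p under 0.05 there were 16 members (38.1%), against 23.8% of all genes tested and 39.0% of those with means of 100 or more. The called share of the members was thus above that of all genes tested and below that of the more abundant genes, while their unadjusted and non-overlapping shares were near those of genes with means of 100 or more.

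**Figure D1:**
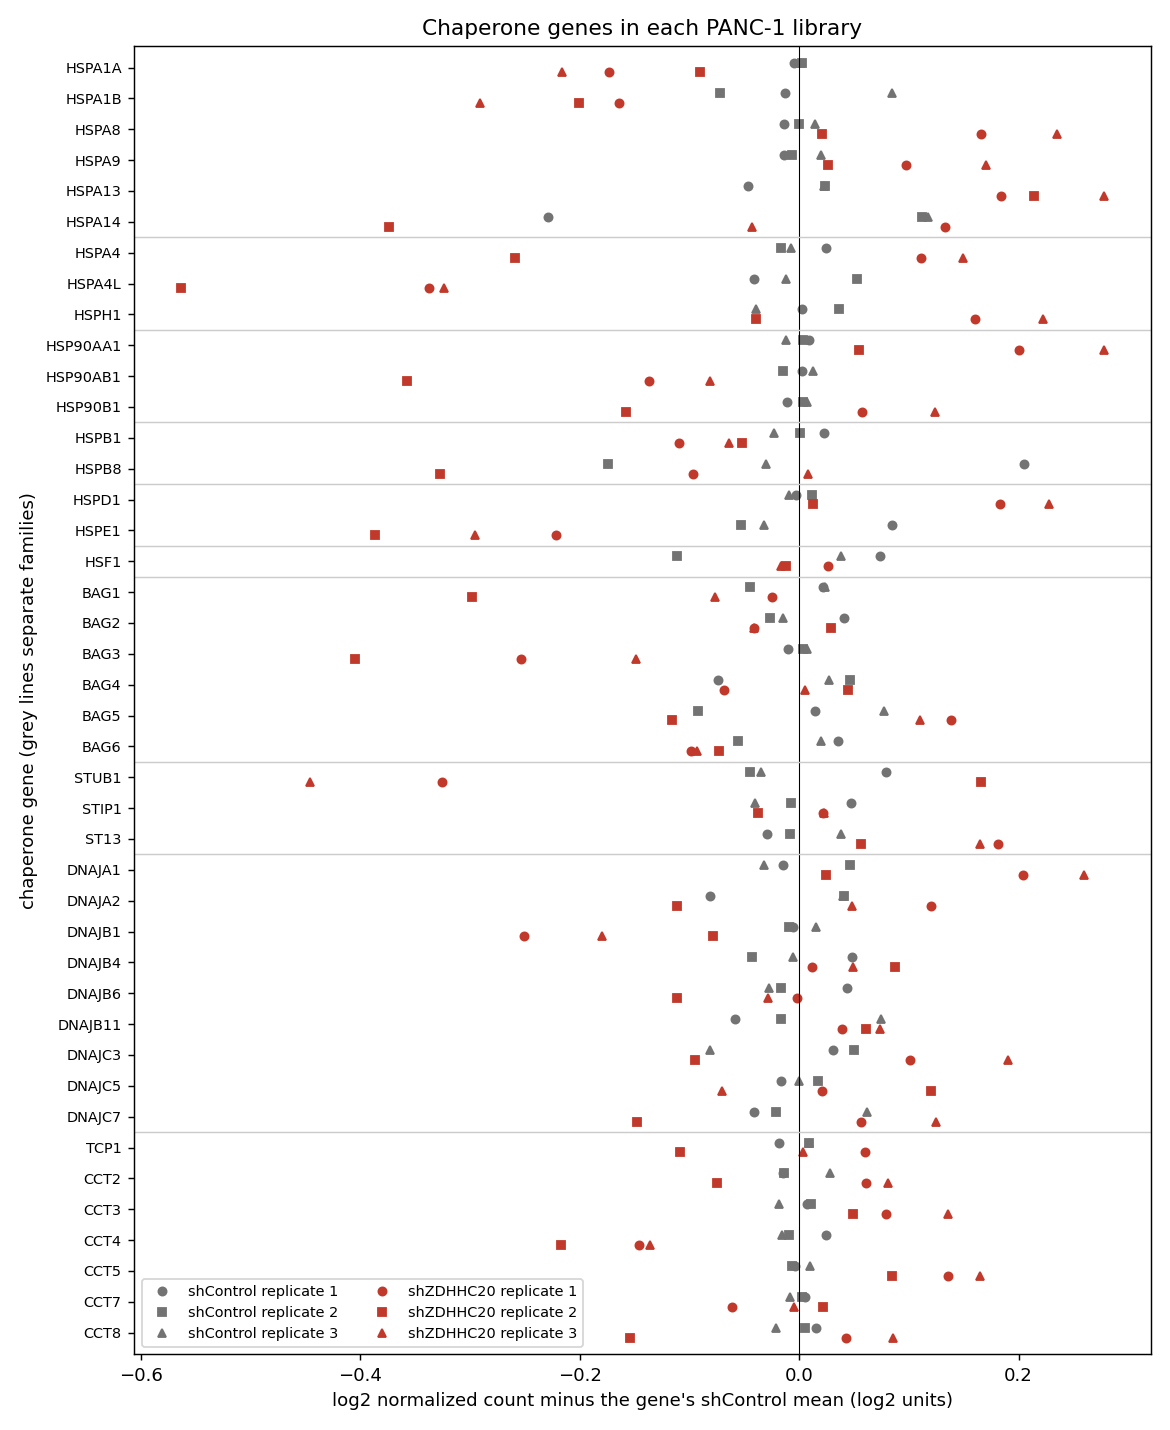
Each row is 1 chaperone gene, and the horizontal axis gives the log2 normalized count of each library minus the mean of the gene's 3 shControl libraries, with grey symbols for shControl and red for shZDHHC20 (circle, square and triangle for replicates 1, 2 and 3). The red square, shZDHHC20 replicate 2, is the lowest of its group in 28 of 42 genes, and HSPA4L lies furthest from its control values.

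Among the HSP70 genes, the largest by level was HSPA8 (ENSG00000109971), the constitutive HSP70 of the cytosol. The 3 control libraries, in order of replicate number, gave 23454, 23674 and 23921 normalized counts, and the 3 silenced libraries gave 26563, 24020.3 and 27879. Every shZDHHC20 library was above every shControl library, but replicate 2 was only just so, and the SD of the shZDHHC20 group (1962) was far wider than that of the control group (234). The log2 fold change of 0.14 (standard error 0.0512, 95% interval 0.03 to 0.25) did not pass the adjusted threshold (adjusted p = 0.104). Without shZDHHC20 replicate 2 it was 0.20, with an adjusted p of 1.38e-05. The HSPA8 locus also has 17 pseudogenes named after it in GENCODE 29, and the 6 of them in the table held 0.048% of its value.

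HSPA1A (ENSG00000204389) and HSPA1B (ENSG00000204388), neighbouring genes on chromosome 6, encode the stress-inducible HSP70 and are near-identical copies, so the division of reads between them is uncertain. HSPA1A had 1322, 1328 and 1328 normalized counts in the shControl libraries and 1175, 1245 and 1141 in the shZDHHC20 libraries. HSPA1B had 813, 780.4 and 870.1 against 732, 714 and 671. Both were lower without overlap between groups, and neither passed the adjusted threshold (log2 fold change -0.16 with adjusted p = 0.106, and -0.22 with adjusted p = 0.0658). Summed, which removes the question of sharing, they went from 2147 ± 45.9 to 1893 ± 74.6 (SD, n = 3), or 88.2% of control. Both passed without shZDHHC20 replicate 2, at log2 fold changes of -0.19 (adjusted p = 0.00775) and -0.23 (adjusted p = 0.0248).

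HSPA13 (ENSG00000155304), an HSP70-like protein of the endoplasmic reticulum, was the only HSP70 gene called. It rose from 812, 853 and 852 in the shControl libraries to 953, 973 and 1017 in the shZDHHC20 libraries, a change of 0.23 ± 0.0628 in log2 units (± standard error; adjusted p = 0.0342), and 0.23 again without shZDHHC20 replicate 2 (adjusted p = 0.00934). HSPA9 (mortalin, the mitochondrial HSP70) was at 13031 ± 161 and 13958 ± 695 (SD, n = 3), with a log2 fold change of 0.098 and an adjusted p of 0.207, which became 0.00144 without shZDHHC20 replicate 2. HSPA14, which helps fold chains at the ribosome, ranged from 207 to 294 with overlapping groups. Its annotation overlaps that of a gene with the same symbol on the same strand, so reads may be shared.

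The HSP110 genes, whose products release nucleotide from HSP70, held the largest difference of the list. HSPA4L (ENSG00000164070) fell from 777, 829.6 and 793 in the shControl libraries to 633, 541 and 639 in the shZDHHC20 libraries, or 75.5% of control. All shZDHHC20 libraries lay clearly below all shControl libraries, with replicate 2 the lowest. This was a change of -0.41 ± 0.0788 in log2 units (± standard error; adjusted p = 0.0045, 95% interval -0.58 to -0.24). It was between -0.45 and -0.33 with each library left out in turn, with an adjusted p of at most 0.0414, the smallest change being that without shZDHHC20 replicate 2 (-0.33, adjusted p = 0.00112), and it was called in 15 of the 16 alternatives. The related HSPA4 and HSPH1 (HSP105) were not called. HSPA4 was at 6132, 5958 and 5996 against 6512, 5038 and 6684, with replicate 2 far below and the other 2 above the controls. HSPH1 was at 3791 ± 100.4 and 4116 ± 381 (SD, n = 3), with a 95% interval of the log2 fold change from -0.02 to 0.25. Without shZDHHC20 replicate 2, HSPA4 (0.13, adjusted p = 0.00376) and HSPH1 (0.19, adjusted p = 0.00115) were higher.

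The log2 fold changes of the cytosolic HSP90 paralogs were opposite in sign, and 1 of them was called. HSP90AA1 (ENSG00000080824), the stress-responsive form, rose from 11941, 11896 and 11766 to 13635, 12321 and 14391, a change of 0.18 ± 0.0531 in log2 units (± standard error; adjusted p = 0.047). HSP90AB1 (ENSG00000096384), the constitutive form, had 29564, 29212 and 29769 in the shControl libraries and 26845, 23038 and 27901 in the shZDHHC20 libraries. Its groups did not overlap either, and its log2 fold change of -0.19 (standard error 0.0596) was just short of the threshold (adjusted p = 0.0557). Without shZDHHC20 replicate 2 the values were 0.24 (adjusted p = 1.1e-05) and -0.11 (adjusted p = 0.00119). HSP90B1 (GRP94), their relative in the endoplasmic reticulum, was at 9020.3 ± 59.4 and 9100.4 ± 906 (SD, n = 3), a log2 fold change of 0.0078 with an interval from -0.13 to 0.14. It was called higher without shZDHHC20 replicate 2, at 0.09 (adjusted p = 0.0227). HSP90AA1 overlaps WDR20 in the annotation, and pseudogenes of the HSP90 genes carry other names and were not counted.

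The chaperonin of mitochondria is made of HSPD1 (HSP60) and its lid HSPE1 (HSP10), genes that lie head to head on chromosome 2 on opposite strands. The stretch printed above lies 289 bases before the HSPE1 start, 221 bases before 1 listed HSPD1 start and 184 bases after the other. HSPE1 (ENSG00000115541) fell from 1043, 948 and 962 to 844, 752 and 802, a change of -0.30 ± 0.0696 in log2 units (± standard error; adjusted p = 0.0131), or -0.26 without shZDHHC20 replicate 2 (adjusted p = 0.00627). HSPD1 (ENSG00000144381) had 15463, 15614 and 15396 in the shControl libraries and 17584, 15623 and 18139 in the shZDHHC20 libraries. Replicate 2 was almost level with the highest control, and the log2 fold change of 0.14 was not called (adjusted p = 0.112). It was 0.21 without that library (adjusted p = 9.1e-06). HSPE1 shares its strand with a readthrough gene and overlaps the far more abundant HSPD1 on the other strand. How the counting used strand is not given, so reads may be shared. Of 26 pseudogenes named after HSPE1, the 6 in the table summed to 6.37% of its value. HSPD1 has 17, of which the 5 in the table summed to 1.39%. The level of HSPE1 is therefore less certain than that of HSPD1.

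Of the BAG genes, whose products bind HSP70 and steer its clients, BAG3 alone was called. BAG3 (ENSG00000151929), a stress-induced member that directs clients to autophagy, fell from 2432, 2456 and 2462 to 2055, 1851 and 2211. The shControl libraries lay close together and the shZDHHC20 libraries were all well below them. This was a change of -0.27 ± 0.0635 in log2 units (± standard error; adjusted p = 0.0149), or -0.20 without shZDHHC20 replicate 2, the lowest library (adjusted p = 0.00271). BAG6, which guards newly made membrane proteins, was at 6496 ± 219 and 6109 ± 57.2 (SD, n = 3) without overlap and was called only without shZDHHC20 replicate 2 (-0.10, adjusted p = 0.0427). BAG1, BAG2, BAG4 and BAG5 had overlapping groups and adjusted p from 0.309 to 0.981. The summed level of the 6 BAG genes was 92.9% of control, with no overlap between groups. This does not describe each gene. BAG3 was at 83.2% of its control mean, BAG1 at 91.5% and BAG6 at 94.0%, while BAG2, BAG4 and BAG5 were between 98.8% and 103.3%.

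HSF1 (ENSG00000185122), the regulator, showed no detectable difference, with 1258, 1107 and 1227 normalized counts in the shControl libraries and 1218, 1186 and 1182 in the shZDHHC20 libraries. The 95% interval of its log2 fold change ran from -0.14 to 0.14, and HSF1 activity, which depends on the protein, was not measured. The small heat shock proteins HSPB1 (HSP27) and HSPB8, which hold unfolded proteins in solution, were not called. HSPB1 was at 3657, 3603 and 3543 against 3338, 3474 and 3445, lower in every library by a small margin (log2 fold change -0.07, adjusted p = 0.366). HSPB8, at 142 to 205 normalized counts, overlapped between groups.

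The co-chaperones that tie HSP70 to HSP90 or to degradation were not called. ST13 (HIP), which steadies the HSP70 cycle, was at 4559, 4625 and 4778 against 5278, 4839 and 5218, a log2 fold change of 0.13 (adjusted p = 0.105). STIP1 (HOP), the adaptor between HSP70 and HSP90, was at 6897 ± 210.1 and 6908 ± 164 (SD, n = 3), with an interval of the log2 fold change from -0.09 to 0.10. STUB1 (CHIP), the ubiquitin ligase of both chaperones, depended most on shZDHHC20 replicate 2. Its values were 1491, 1369 and 1379 in the shControl libraries and 1127, 1584 and 1036 in the shZDHHC20 libraries, so replicates 1 and 3 lay below every control and replicate 2 above every control. Its log2 fold change was -0.20 (adjusted p = 0.336) with all libraries and -0.39 (adjusted p = 0.000184) without replicate 2. ST13 passed without that library as well (0.17, adjusted p = 0.000983).

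None of the 9 DNAJ genes was called by limma, and 2 of them, DNAJA1 and DNAJB1, had an unadjusted p under 0.05. DNAJB1 (HSP40, ENSG00000132002), the stress-inducible partner of HSP70, was at 4596, 4584 and 4662 against 3877, 4371 and 4075, lower without overlap (log2 fold change -0.17, adjusted p = 0.0509). DNAJA1, a constitutive partner, was at 4398, 4589 and 4347 against 5119.6, 4520.1 and 5319.9, with replicate 2 inside the control range (0.16, adjusted p = 0.105). Without shZDHHC20 replicate 2 both passed, DNAJB1 at -0.22 (adjusted p = 0.000245) and DNAJA1 at 0.23 (adjusted p = 0.000174). DNAJA2, DNAJB4, DNAJB6, DNAJB11, DNAJC3, DNAJC5 and DNAJC7 overlapped between groups, with log2 fold changes from -0.05 to 0.07.

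The 7 TRiC subunits did not move as a block. CCT4 (ENSG00000115484) fell from 8681, 8483 and 8443 to 7713, 7341 and 7767, a change of -0.17 ± 0.0433 in log2 units (± standard error; adjusted p = 0.0244), with every shZDHHC20 library below every control. Without shZDHHC20 replicate 2 the change of CCT4 was -0.14 (adjusted p = 0.000991). CCT5 had 5263, 5254 and 5314 against 5797, 5594 and 5916, higher without overlap but not called (0.13, adjusted p = 0.0846). CCT3 was also higher without overlap, at 9639 ± 107 and 10247 ± 311 (SD, n = 3, adjusted p = 0.227). CCT3 and CCT5 passed without shZDHHC20 replicate 2 (0.11 with adjusted p = 0.00704, and 0.15 with adjusted p = 0.00132). TCP1, CCT2, CCT7 and CCT8 overlapped, with log2 fold changes from -0.01 to 0.02. The summed normalized count of the 7 subunits was 49029 ± 159.5 and 49110 ± 1642 (SD, n = 3), or 100.2% of control. CCT6A, a subunit outside the list, was lower (-0.18, adjusted p = 0.0293).

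**Figure D2:**
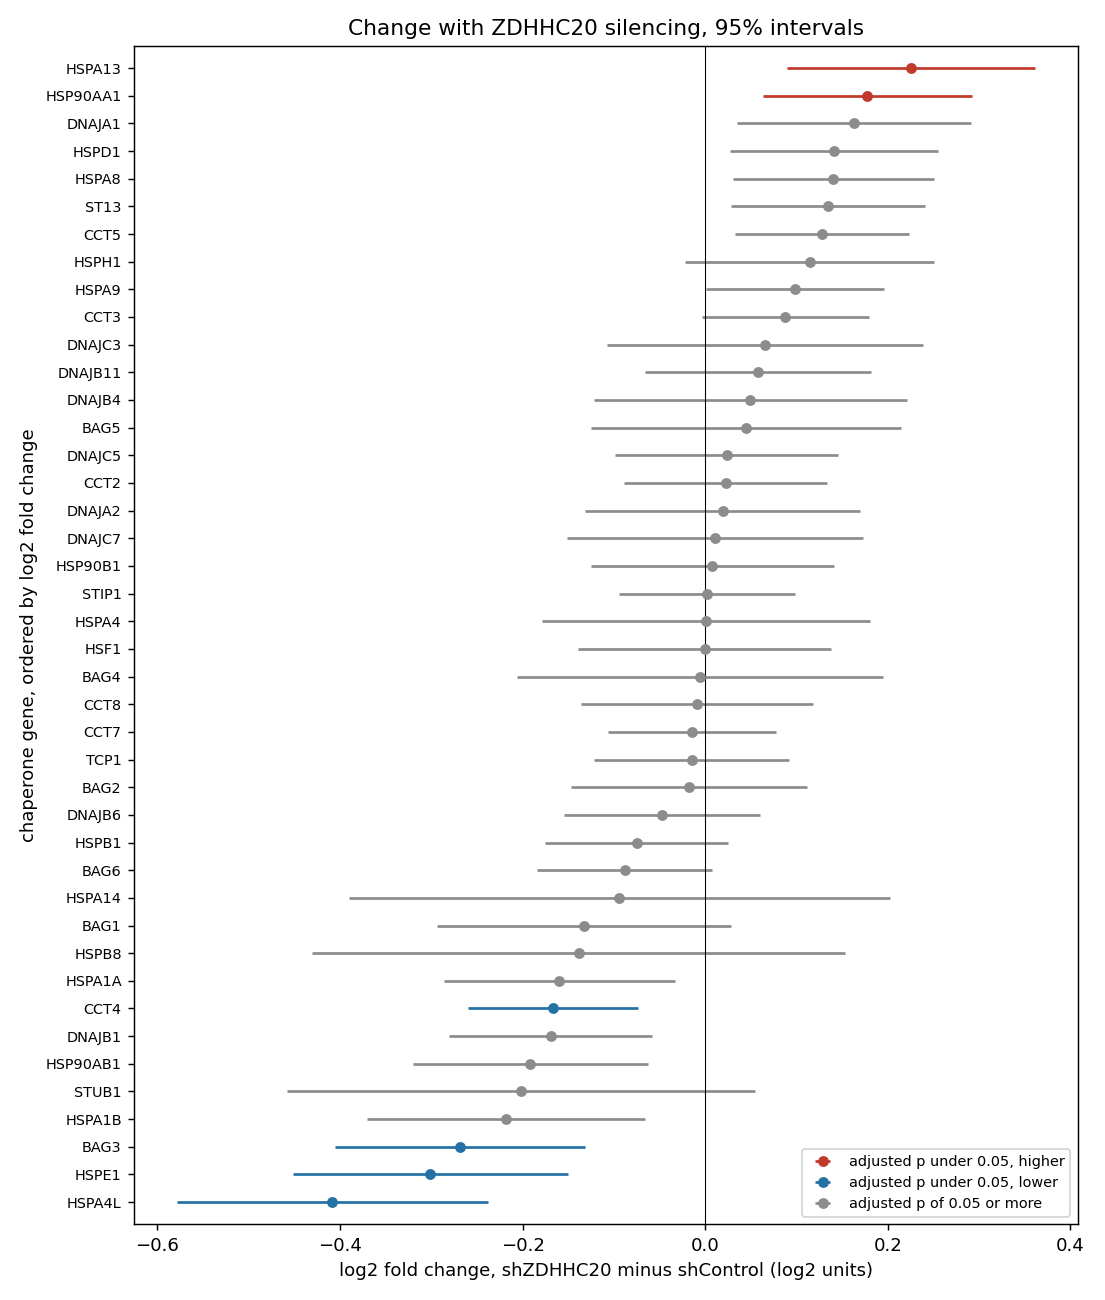
Log2 fold change of each of the 42 genes, shZDHHC20 minus shControl, ordered from lowest (bottom) to highest (top), with bars for limma's 95% intervals. The called genes (HSPA13 and HSP90AA1 in red, and CCT4, BAG3, HSPE1 and HSPA4L in blue) are towards the ends of a range from -0.41 to 0.23, and the remaining 36 are grey.

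The calls were sensitive to the libraries used. HSPA4L passed with any library left out. HSPE1 was lost without shControl replicate 1 (-0.26, adjusted p = 0.095) or 3 (-0.32, adjusted p = 0.0542). BAG3 was lost without any shControl library or shZDHHC20 replicate 1, with log2 fold changes from -0.28 to -0.27 and adjusted p from 0.064 to 0.0793. CCT4 was lost without the same 4 libraries (from -0.18 to -0.15, adjusted p from 0.0759 to 0.142). HSPA13 and HSP90AA1 were lost without each library other than shZDHHC20 replicate 2, HSPA13 at 0.20 to 0.25 (adjusted p from 0.0785 to 0.159) and HSP90AA1 at 0.13 to 0.18 (adjusted p from 0.152 to 0.185). Without shZDHHC20 replicate 2, 22 of 42 members (52.4%) were called, 12 higher and 10 lower. The share was 20.0% over all genes tested (8.93% higher and 11.1% lower) and 38.3% over genes with means of 100 or more in the same fit, so more genes passed in the list and outside it. CCT4 was also lost under quantile normalization (-0.10, adjusted p = 0.119), and HSP90AA1 with a pseudocount of 0.01 (adjusted p = 0.0698) or with no filter (adjusted p = 0.0657). Both were lost among genes with means of 100 or more without the mean-variance trend (adjusted p = 0.064 for CCT4 and 0.106 for HSP90AA1), a setting chosen after seeing the data. The 6 genes called with all libraries were among the 22 called without shZDHHC20 replicate 2. In the model without the mean-variance trend, 0 of 42 were called by limma (adjusted p from 0.113 to 0.318 for the 6). At an adjusted p under 0.05, that model called 1.58% of all genes tested and 2.14% of those with means of 100 or more. At an unadjusted p under 0.05 it had 1 member higher and 6 lower, and the share of all genes at that level was not computed.

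**Figure D3:**
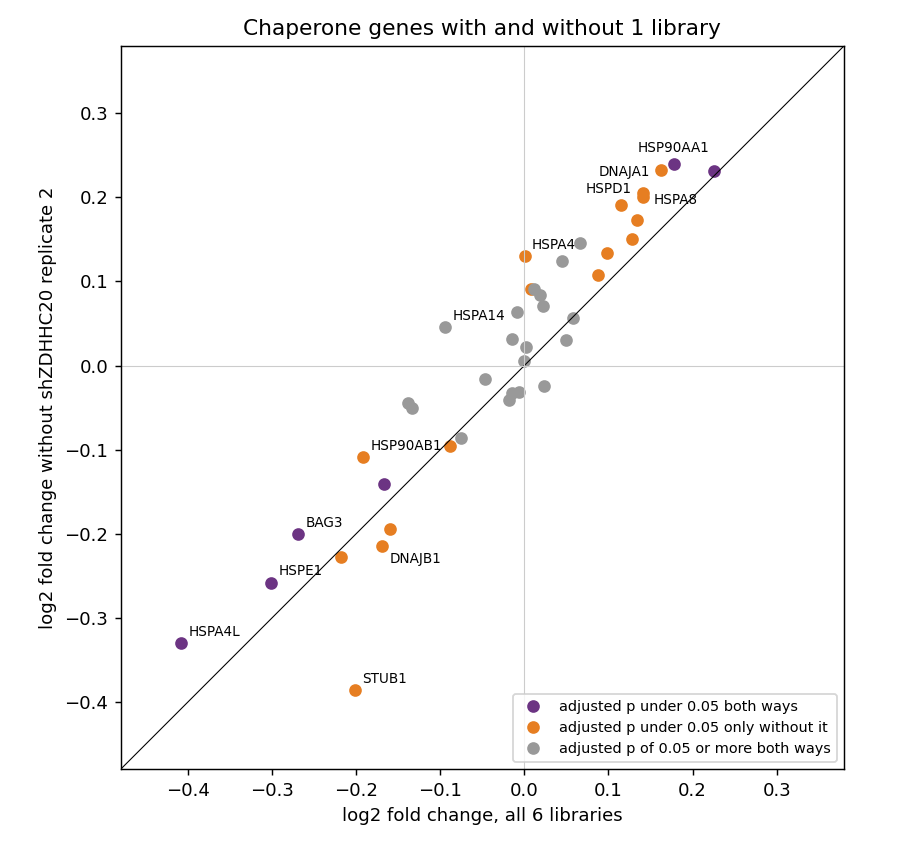
Log2 fold change of each chaperone gene with all 6 libraries (horizontal axis) and without shZDHHC20 replicate 2 (vertical axis), with the line of equal values. Orange marks the 16 genes that passed an adjusted p of 0.05 only without that library, and purple the 6 that passed both ways. STUB1 lies furthest below the line, and HSPA14 and HSPA4 lie above it.

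Since several partner genes had log2 fold changes of opposite sign, 7 ratios within each library were computed, with the pairs chosen after their values were seen. The ratio of HSP90AA1 to HSP90AB1 was 0.404, 0.407 and 0.395 in the shControl libraries and 0.508, 0.535 and 0.516 in the shZDHHC20 libraries. Replicate 2 was in step with the others here, and the ratio was higher by 0.37 on the log2 scale with all libraries and 0.35 without replicate 2. The ratio of HSPD1 to HSPE1 was 14.8, 16.5 and 16.0 against 20.8, 20.8 and 22.6, a log2 difference of 0.44 with all libraries and 0.46 without replicate 2. The limits on the HSPE1 level given above apply to this ratio.

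HSPA8 against the sum of HSPA1A and HSPA1B, the constitutive against the inducible HSP70, was at 10.98, 11.2 and 10.9 in the shControl libraries and 13.9, 12.3 and 15.4 in the shZDHHC20 libraries, a log2 difference of 0.32 that was 0.41 without replicate 2. HSPH1 to HSPA4L, both of the HSP110 family, was 4.89, 4.69 and 4.65 against 6.70, 6.82 and 6.92, with a log2 difference of 0.52 with and without replicate 2. HSPA8 to BAG3 went from 9.67 ± 0.0429 to 12.8 ± 0.197, CCT5 to CCT4 from 0.618 ± 0.0116 to 0.758 ± 0.00595, and DNAJA1 to DNAJB1 from 0.964 ± 0.0347 to 1.22 ± 0.161 (SD, n = 3). Without replicate 2 the log2 difference of the last of these was 0.45 in place of 0.33, while that of HSPA8 to BAG3 was 0.40 in place of 0.41 and that of CCT5 to CCT4 was 0.29 both ways. None of the 7 ratios overlapped between groups. For each the two-sided exact permutation p was 0.1, also after Benjamini-Hochberg adjustment over the 7, and 3 libraries against 3 can give no smaller value. Because the pairs were picked for that difference, this is a description.

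**Figure D4:**
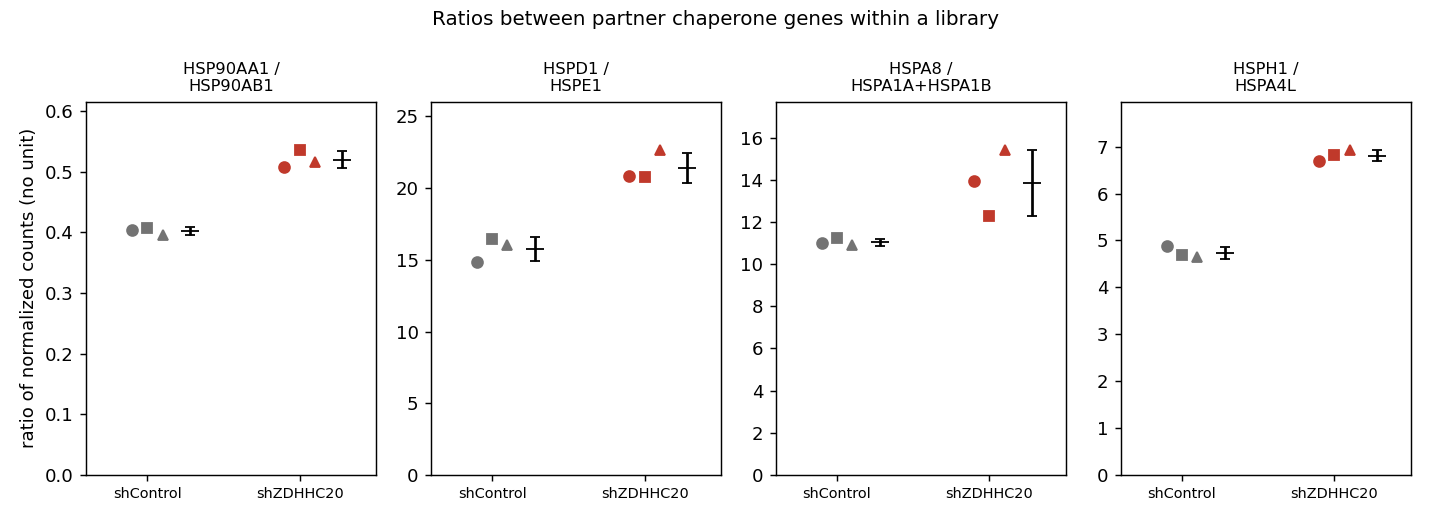
Ratio of normalized counts of partner genes in each library (grey, shControl; red, shZDHHC20; circle, square and triangle for replicates 1, 2 and 3), with the mean and SD of each group in black and axes from 0. The shZDHHC20 libraries lie above all shControl libraries in the 4 ratios shown, by a narrow margin for replicate 2 in HSPA8 to HSPA1A plus HSPA1B.

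Levels between genes can be set side by side only per length. Divided by the summed exon length in GENCODE 29, the control level was highest for HSP90AB1, at 9904 normalized counts per kb, followed by HSPA8 at 4884, HSPD1 at 3649 and CCT4 at 3016. The lowest were BAG4 at 56.6, HSPB8 at 62.6 and HSPA4L at 68.8 normalized counts per kb. TRiC subunits, which are built into the ring in equal number, ranged from 904 (CCT5) to 3016 (CCT4) per kb, and HSPD1 exceeded HSPE1 (498 per kb). Annotated exon length includes isoforms that these cells may not use, so this order is approximate. As a whole, the 42 genes held between 1.203% and 1.209% of the summed values in the shControl libraries and between 1.203% and 1.291% in the shZDHHC20 libraries, and the groups overlapped in their summed level.

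The wider chaperone network was taken from 10 lists of 109 genes outside the members, of which 105 were tested. At an adjusted p under 0.05, 4 were higher and 10 lower, or 13.3% against 11.5% of all genes tested. Of the 89 with means of 100 or more, 14.6% were called, against 21.7% of all such genes. With 1 library left out, 1 to 14 were higher and 6 to 16 lower, the highest numbers being those without shZDHHC20 replicate 2. With no mean-variance trend 0 were called by limma. In that fit 24 had an unadjusted p under 0.05, and the share of all genes at that level was not computed. UBE2D3, TRAP1, CTSA, TIMM44, SERPINH1, UBE2D1 and RARA passed with any library left out. The calls of DNAJB5, DNAJC6, DNAJC12, TXNDC9, HYOU1, CCT6A and AHSA1 did not, as given below. Of 8 genes linked to chaperone-mediated autophagy, 2 were lower. CTSA, a lysosomal protease that cleaves LAMP2A, went from 2722 ± 29.2 to 2139 ± 53.9 (SD, n = 3, log2 fold change -0.35, adjusted p = 0.000526), and RARA, a retinoic acid receptor that restrains the pathway, from 794 ± 13.8 to 624 ± 12.6 (-0.35, adjusted p = 0.00375). LAMP2, whose A form is the receptor at the lysosome, was at 5649, 5736 and 5519 against 5667, 4864 and 5551, with overlapping groups (-0.07, adjusted p = 0.476). Gene-level values do not separate the forms of LAMP2.

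Among 8 mitochondrial chaperones and proteases, 2 were lower in limma's test and 6 were not called. TRAP1, the mitochondrial HSP90, fell from 1648 ± 36.1 to 1233 ± 36.9 (SD, n = 3, log2 fold change -0.42, adjusted p = 0.000332), and TIMM44, which tethers HSPA9 to the import pore, had a log2 fold change of -0.37 (adjusted p = 0.00193). Among 6 ubiquitin-conjugating enzymes and variants of the kind STUB1 works with, UBE2D3 was lower (-0.43, adjusted p = 0.000222) and UBE2D1 higher (0.45, adjusted p = 0.00306). Of 11 HSF1-responsive genes, SERPINH1, the collagen chaperone, was lower (-0.37, adjusted p = 0.00241) and AHSA1, the activator of HSP90 ATPase, higher (0.20, adjusted p = 0.0396). AHSA1 passed in 1 of the 6 fits with a library left out, the fit without shZDHHC20 replicate 2 (0.19, adjusted p = 0.0127), and was also the 1 gene called of 15 HSP90 co-chaperones. Of 35 further DNAJ genes, DNAJB5 (-0.45, adjusted p = 0.0215) and DNAJC12 (-0.57, adjusted p = 0.0431) were lower and DNAJC6 higher (0.33, adjusted p = 0.0336). With a library left out, DNAJB5 passed in 3 of 6 fits, DNAJC6 in 2 and DNAJC12 in 0, with adjusted p for DNAJC12 from 0.06 to 0.195. HYOU1, of the endoplasmic reticulum, was the 1 gene called of 7 further HSP70 relatives (-0.16, adjusted p = 0.0282). It was lost under quantile normalization and without any library other than shZDHHC20 replicate 2, where it was -0.17 (adjusted p = 0.000523). HSPA5, of the same list and also of the endoplasmic reticulum, went the other way and was just short of the threshold. Its means were 20610 ± 227 and 22708 ± 936 (SD, n = 3), without overlap (0.14, adjusted p = 0.05002).

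Of 11 prefoldin and TRiC partners, TXNDC9 was higher (0.29, adjusted p = 0.0233) and CCT6A, given above, lower. TXNDC9 passed in 1 of the 6 fits with a library left out, the fit without shZDHHC20 replicate 2 (0.34, adjusted p = 0.00152). CCT6A passed in 2 of them, at -0.13 without that library (adjusted p = 0.00175), and was lost under quantile normalization. None of 5 HSP70 regulators was called by limma, and 1 of them, TTC1, had an unadjusted p under 0.05. None of the 4 small heat shock proteins tested was called or had an unadjusted p under 0.05. These 4 (HSPB6, HSPB7, HSPB9 and CRYAB) were at most 12.1 normalized counts in any library, so near the floor that little could be shown for them.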

How the data were processed

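RNA-seq was analysed in 6 PANC-1 libraries, 3 shControl and 3 shZDHHC20, matched to the columns of the table by group and replicate number. Each gene has 1 deposited signal value in each library. FPKM is the name given to the table, yet within a tolerance of 0.1 all values of each library are whole multiples of its smallest value above 0, so they are gene counts scaled by library and not by gene length. The kit was strand-specific, and hg19 is named in the submitters' processing notes. The aligner, the counting tool and its use of strand are not given in the sources used here. Identifiers were matched to symbols for 27175 of 27394 genes.

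The test was limma 3.58.1 in R 4.3.3, on log2(value + 0.1), for genes with a mean of at least 1, with the mean-variance trend and Benjamini-Hochberg adjustment. For genes with values near 0, the log2 fold change can differ from the ratio of the group means in size or sign. DNAJB13, for example, had means of 2.01 in shControl and 2.53 in shZDHHC20 and a log2 fold change of -0.78. Ratios were tested by exact permutation in scipy 1.17.1. On simulated data for shZDHHC20 against shControl, 196 of 200 genes changed 2-fold among 27394 were recovered and 6 of 21944 unchanged genes called. The simulation gave all genes the same dispersion, changed none of the lowest genes and held no library that stood apart. No member changed 2-fold, so these rates check the code and do not describe the smaller changes reported here. Promoter sequences are RefSeq's, on GRCh38.p14, and in 47 of 52 windows bases after the start matched a GENCODE 29 transcript of the gene on its strand. Depth is given only through the scaling factors, relative to the other libraries, and no counting intervals were computed.

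The members, lists and pairs were chosen with earlier results of these data known. Members with an adjusted p under 0.05, HSPA8, HSPA1A, HSPA1B, HSF1 and the member of each family with the smallest p are given by library, and others were added after their values were seen. From each further list at most 4 called genes, and LAMP2, are named, and others such as HSPA5 were added after their values were seen. Alternatives left out each library in turn, added a replicate block, dropped the mean-variance trend, moderated robustly, scaled by median ratios, normalized by quantiles, changed the pseudocount to 1 or 0.01, and changed the filter to none or to a mean of 5. A mean of at least 100 without the trend was added after seeing the data.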

Additional observations from a re-analysis of the deposited data

How the results depend on the processing

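With all libraries 2 members were called higher and 4 lower. Median-ratio scaling returned these counts, since the deposited values already have equal median ratios, and a pseudocount of 1 and robust moderation stayed within 1.5 times of them. The number higher was 1 with a pseudocount of 0.01, with no filter, and with a mean of at least 100 and no trend (chosen after seeing the data), and 8 with quantile normalization. The number lower was 7 with a mean of at least 5. With no mean-variance trend both were 0 by limma, with 1 higher and 6 lower at an unadjusted p under 0.05. Across the fits that left out each library, the number higher was from 0 to 12 and the number lower from 1 to 10, the highest without shZDHHC20 replicate 2. The fits with 0 higher had 3 to 5 members higher at an unadjusted p under 0.05. The log2 fold change of HSF1 was -0.00056 with all libraries, 0.0199 under quantile normalization and from -0.0562 to 0.0361 with libraries left out. The cause of these shifts was not tested.

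With the replicate block 0 members were higher by limma (7 at an unadjusted p under 0.05) and 3 were lower. It ended the calls of HSPA13 (adjusted p = 0.0724), HSP90AA1 (0.0781) and CCT4 (0.0725), and those of DNAJC6, DNAJC12, HYOU1, CCT6A and AHSA1 outside the list. There was no sign that the numbers pair the libraries. Same-numbered libraries had correlations of their deviations from -0.16 to -0.08 over 10908 genes, and differently numbered ones from -0.09 to 0.15. With 3 libraries a group, these correlations cannot show that the libraries are unpaired. The planned count tests were not run, and limma on the log2 values was the only test of single genes. With 3 libraries a group and a median standard error of 0.0596 on the log2 scale, small changes could not be shown. With all libraries, HSPA8 at 110.4% of control and HSPA1B at 85.9% did not pass the adjusted threshold, while CCT4 at 89.1% did.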
